A study of Arabidopsis thaliana with 6 samples.

Results

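The comparison set 2 arrays of Arabidopsis thaliana seedlings labelled TaVAPOE against 2 arrays labelled WT, 4 of the 6 arrays of the series. The other 2 arrays, of an atvap mutant grown alike, enter only 1 alternative fit. Mutant replicate 1 correlated with the other 5 arrays at r = 0.0724 to 0.194 and its values are not given, and mutant replicate 2, at 0.951 to 0.957 with the TaVAPOE pair and WT replicate 2, is given beside some genes as a description. The members were chosen by these labels alone, and every probe set other than the Affymetrix control sets was kept, 22746 in all. TaVAPOE seedlings are described as the wild type having TaVAP overexpression, and WT seedlings as the wild type. Both groups were whole plants aged 5 days, grown on plates under 16 h of light and 8 h of darkness with no further treatment. The labels give neither the promoter of the transgene, the number of independent lines, the accession of either group, nor whether the 2 biological replicates came from separate sowings, so a p-value here measures the spread between these arrays only. The transgene's own transcript was not analysed here.

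VAP proteins sit in the membrane of the endoplasmic reticulum (ER) and hold it close to other membranes by binding partner proteins on the opposite side. The plant members, called VAP27, also connect the ER to the plasma membrane and, through the actin-binding NET3C protein, to the cytoskeleton. The prefix Ta is that of bread wheat genes, and the series title places the protein in stress tolerance.

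The deposited score of each probe set is logarithmic, to a base that the sources used here do not give, so differences are written as TaVAPOE minus WT in log units and no fold is given. WT replicate 1 stood apart from the other arrays used, so differences and counts are given with and without it, or the values of all 4 arrays are given. The 6 probe sets near the 3' ends of plant reference genes averaged 7.59 and 7.62 on the TaVAPOE arrays, against 6.09 on WT replicate 1 and 7.54 on WT replicate 2. The 99th percentile of the probe sets was 7.76 and 7.78 on the TaVAPOE arrays, and at 5.78 on WT replicate 1 and 7.65 on WT replicate 2. Across probe sets, which are not independent replicates, the TaVAPOE pair correlated at r = 0.979 and the WT pair at r = 0.521. The shoot markers RCA (Rubisco activase) and LHCB4.1 (a photosystem II antenna protein) read 8.92 to 9.29 on all 4 arrays, and the other shoot marker measured, SPCH of the stomatal lineage, read 1.53 and 1.99 in TaVAPOE, against 3.13 and 1.53 in WT. The root hair expansins EXPA7 and EXPA18 read 1.69 to 3.12. The 1 flower marker measured, AT5G07230, read 2.96 and 2.40 in TaVAPOE, against 2.41 and 2.93 in WT, and no seed marker was measured.

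The dimness of WT replicate 1 depended on level and moved the differences with it. Among 541 genes at a level of 6 or more, taken as the mean of the TaVAPOE mean and WT replicate 2, the median TaVAPOE minus WT difference was 1.12 log units over 4 arrays and 0.077 without WT replicate 1. Among 4733 genes at a level under 2 it was -0.68 over 4 arrays and -0.13 without that array. WT replicate 1 read below WT replicate 2 for 99.3% of the genes in the brightest class and for 23.4% in the dimmest. A bright gene therefore needed more than a positive difference over 4 arrays to count below: both differences had to reach the same size.

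**Figure D1:**
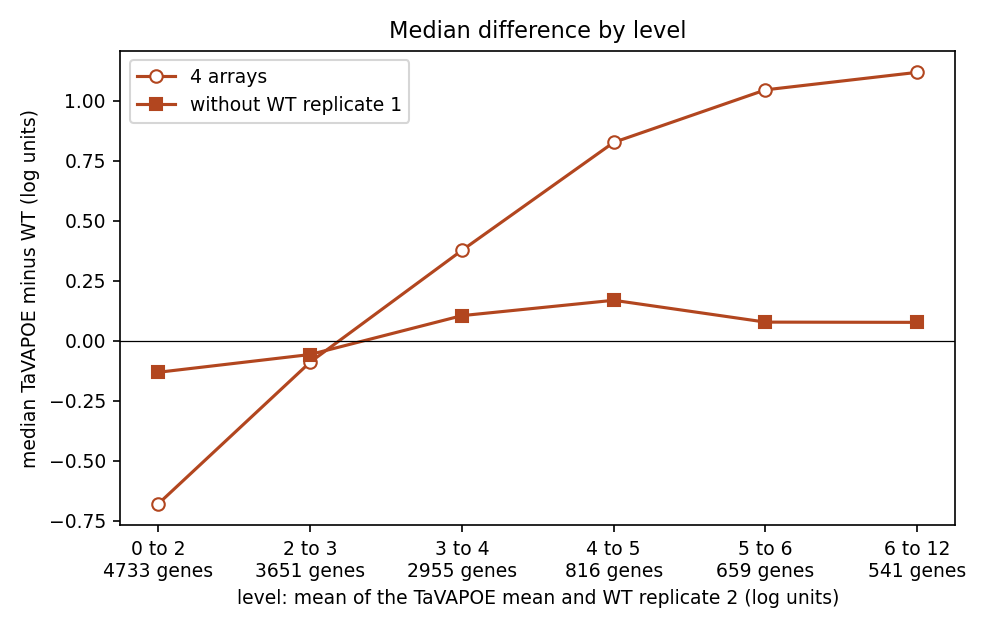
Median TaVAPOE minus WT difference (log units) of genes grouped by level, over 4 arrays (open circles) and without WT replicate 1 (filled squares). Over 4 arrays the medians climb to 1.12 in the brightest class, while without WT replicate 1 they stay between -0.131 and 0.169.

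In limma, 0 of 22746 probe sets (0%) passed an adjusted p of 0.05 over the 4 arrays, and the lowest adjusted p was 0.650. There were 924 (4.06%) at an unadjusted p under 0.05, and no other tool was run. Without WT replicate 1, 9 probe sets (0.0396%) passed, 7 higher and 2 lower, and 4794 (21.1%) had an unadjusted p under 0.05. That fit has 1 residual degree of freedom, so the single WT array is assumed to vary as the TaVAPOE pair does. Without WT replicate 2, the dim array alone stood for the wild type and 13163 probe sets passed. By size alone, 276 probe sets (1.21%) had both TaVAPOE arrays at least 1 log unit above both WT arrays and 215 (0.945%) had them at least 1 unit below. Without WT replicate 1 these counts were 531 (2.33%) and 605 (2.66%).

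The probe sets with 1 annotated gene gave 13355 genes, each read through its brightest probe set. A difference is called large here when both TaVAPOE arrays lay beyond both WT arrays, the brighter group averaged above the median of all values (2.78), and the differences over 4 arrays and without WT replicate 1 were both at least 2 log units with the same sign. It is called moderate when the smaller of the 2 differences lay between 1 and 2. By this rule 21 genes (0.157%) were largely higher in TaVAPOE and 4 (0.03%) largely lower. Large and moderate differences together numbered 203 higher (1.52%) and 113 lower (0.846%). After quantile normalization of the 4 arrays they numbered 125 higher and 124 lower, so the excess of higher genes was not present on that scaling, and with dim probe sets left out they numbered 196 and 47. Of genes with a difference of 1 unit or more against WT replicate 2 alone there were 376 higher (2.82%) and 556 lower (4.16%), and in 98 and 215 of these WT replicate 1 lay among or beyond the TaVAPOE arrays. At the edges, AT1G57630 entered the large class at 2.003 and RALFL32 stayed outside it at 1.98, and on the lower side AT1G44030 entered at 2.11 and AT1G64360 stayed outside at 1.98.

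**Figure D2:**
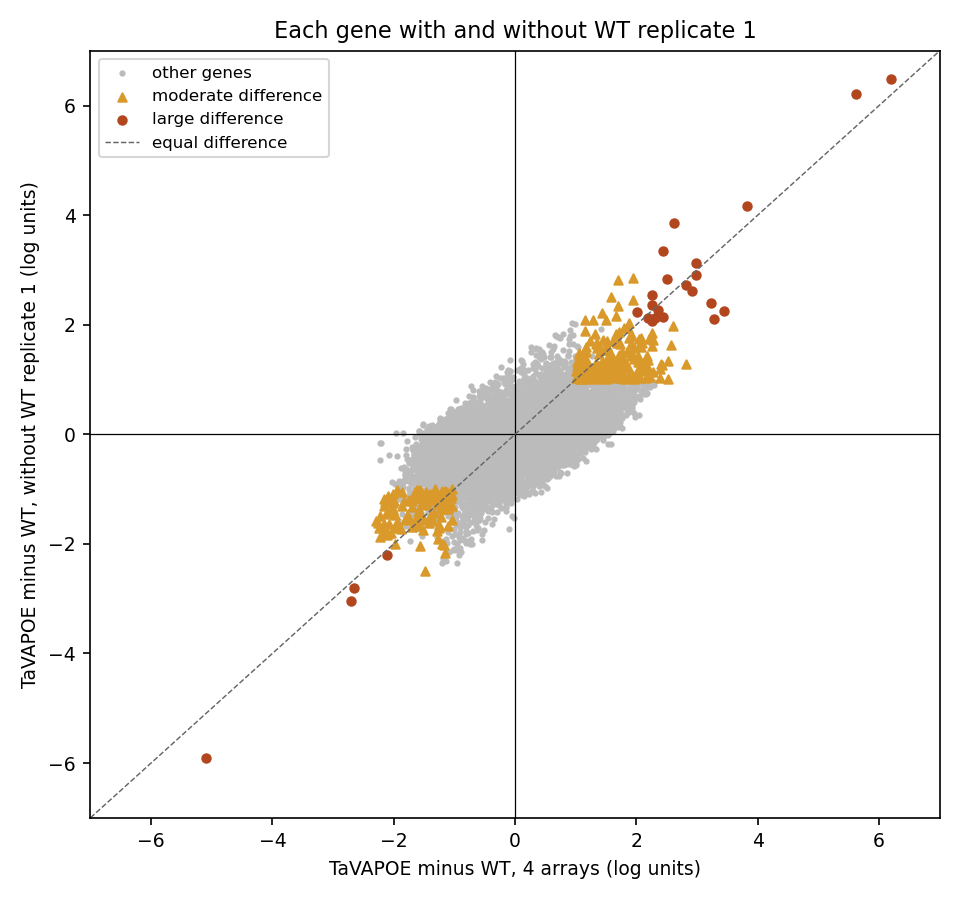
Each point is a gene, with its TaVAPOE minus WT difference over 4 arrays on the horizontal axis and without WT replicate 1 on the vertical axis (log units). The 25 genes with a large difference keep their sign in both settings, and AT2G25510, ECS1 and AT3G48640 lie farthest out. Some lie off the dashed line of equal difference, among them AT3G44630 (2.62 and 3.85) and AT3G28500 (3.45 and 2.25).

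The genes that stood highest in TaVAPOE were few and bright. AT2G25510 led them, 6.19 ± 0.40 log units higher (SE, n = 2 arrays a group) and 6.49 ± 0.19 higher without WT replicate 1. ECS1, a protein of the cell wall, followed at 5.61 ± 0.53 and 6.21 ± 0.19. Both passed without WT replicate 1 (limma adjusted p = 0.0251 each), as did AT1G66090 at 0.0462 and AT3G44630 at 0.0476. The other 17 genes did not pass in either fit.

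ARPN, which encodes plantacyanin, a small copper protein of the cell surface, read 4.79 and 4.96 in TaVAPOE, against 2.71 and 2.04 in WT. TBL36, of the family that acetylates cell-wall polysaccharides, read 5.40 and 5.36 in TaVAPOE, against 3.11 and 3.25 in WT. ATB2, of the aldo-keto reductase class, read 5.59 and 5.34 in TaVAPOE and 3.04 and 3.19 in WT. For each of these the arrays of a pair lay close together and the pairs far apart, and WT replicate 1 sat beside WT replicate 2. ZW9 had the same form, at 4.84 and 5.09 in TaVAPOE, against 1.93 and 2.06 in WT, a difference of 2.97 ± 0.36 over 4 arrays and 2.91 ± 0.21 without WT replicate 1.

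Several of the genes had no symbol in the annotation used here and are given by locus. AT3G48650, annotated by RefSeq as a transcribed pseudogene, read 5.15 and 5.51 in TaVAPOE, against 2.49 and 2.21 in WT. AT4G20480 read 4.36 and 3.66 in TaVAPOE, against 1.10 and 1.28 in WT, where both WT arrays lay below 1.60, the 20th percentile of all values. With values raised to that percentile its difference was 2.41 in both settings. AT1G27030 read 4.75 on both TaVAPOE arrays, against 1.53 and 2.12 in WT. AT1G52770, at 3.60 and 3.71 in TaVAPOE and 1.49 and 1.29 in WT, was the other gene with both WT arrays below that percentile.

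Other genes had WT arrays that disagreed with each other, although both lay below TaVAPOE. AT3G28500 read 6.34 and 6.21 in TaVAPOE, against 1.63 and 4.02 in WT, so that its difference was 3.45 over 4 arrays and 2.25 without WT replicate 1. The plastid gene ndhA, for a subunit of the NDH complex, read 6.80 and 6.12 in TaVAPOE and 2.01 and 4.37 in WT. AT1G35710 read 5.58 and 5.25, against 1.33 and 3.02. AT1G66100 went the other way, with 5.62 and 5.59 in TaVAPOE and 4.08 on WT replicate 1 against 2.27 on WT replicate 2. AT3G44630 had the same spread, at 4.66 and 4.77 in TaVAPOE, against 3.32 and 0.86 in WT.

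**Figure D3:**
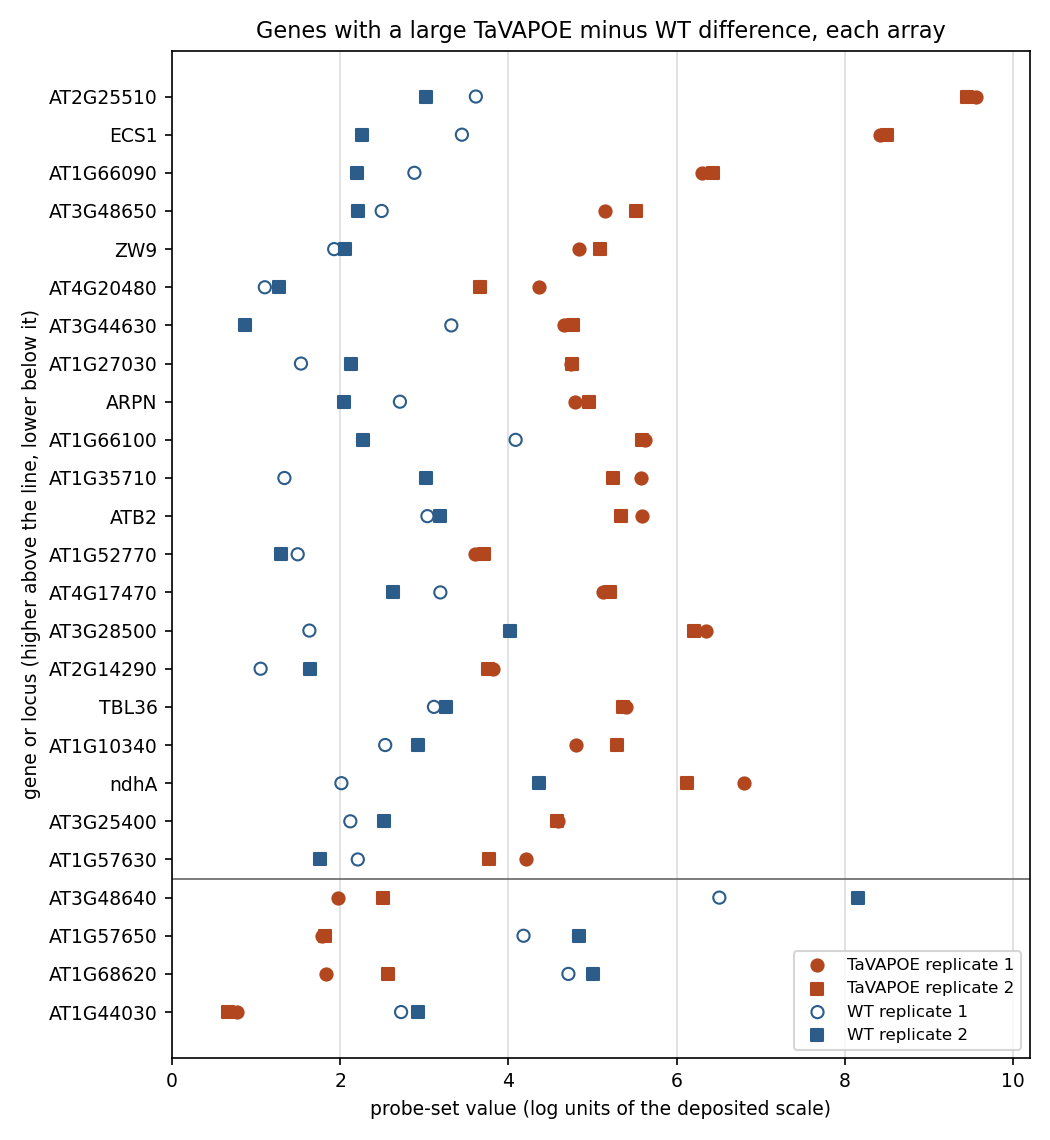
Probe-set values (log units) of the 25 genes with a large difference on each TaVAPOE array (orange) and WT array (blue, replicate 1 open). The 21 genes above the line read higher in TaVAPOE and the 4 below it lower, with no overlap between the groups.

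Only 4 genes were largely lower. AT3G48640 read 1.97 and 2.51 in TaVAPOE, against 6.51 and 8.16 in WT, a difference of -5.09 ± 0.68 over 4 arrays. Without WT replicate 1 it was -5.92 ± 0.29 and passed (limma adjusted p = 0.0476). AT1G57650 read 1.78 and 1.82 in TaVAPOE, against 4.18 and 4.84 in WT. AT1G68620 had a difference of -2.66 over 4 arrays and -2.81 without WT replicate 1. AT1G44030 read 0.77 and 0.66 in TaVAPOE, against 2.72 and 2.92 in WT, a difference of -2.11 over 4 arrays and -2.21 without WT replicate 1. With values raised to the 20th percentile (1.60) these were -1.22 and -1.32, below the size of the large class, and its probe set may also hybridize with other transcripts. AT1G57650 was near the edge of the test without WT replicate 1, at a limma adjusted p of 0.0631.

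Moderate differences covered more functions, and 182 genes were higher and 109 lower by this class. Of all 316 genes with a large or moderate difference, 253 are known here by locus only, and 56 with a known role were set in 9 groups after their values were seen, so the groups describe and do not test. Those groups held more higher than lower genes for the cell wall (9 against 1), photosynthesis and plastids (8 against 1), chromatin and cell division (6 against 0) and abiotic stress and copper (6 against 0). Among all genes with such a difference and a symbol 46 were higher and 17 lower, so most groups could be expected to lean that way. The groups held 3 lower genes and 0 higher for calcium and glutamate receptor-like proteins. No gene in these groups except ECS1 passed in either fit.

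Wall and surface genes were the largest such group. RALFL32, for a RALF-type signal peptide, read 5.39 and 5.83 in TaVAPOE, against 2.40 and 3.63 in WT. EXPA4, an expansin that loosens walls, read 4.34 and 4.19 in TaVAPOE and 3.12 and 2.10 in WT, and the endoglucanase gene GH9C2 read 4.81 and 4.43, against 2.55 and 2.82. SKU5, a membrane-anchored glycoprotein needed for straight root growth, differed by 2.26 over 4 arrays and 1.85 without WT replicate 1. Its reading on atvap mutant replicate 2, the concordant mutant array, was 5.57, near the TaVAPOE arrays at 5.98 and 5.80. XTH32, a xyloglucan-modifying enzyme, differed by 1.59 and 1.13, and AT5G15050, listed as GlcAT14B, a glucuronosyltransferase, by 1.11 and 1.35. The 1 lower gene was cwINV6, a fructan exohydrolase of the wall invertase family, at 1.56 and 1.82 in TaVAPOE, against 2.71 and 3.01 in WT. Over whole families the same direction was not seen. Family counts of moderate or large differences, here and below, stand beside 1.52% higher and 0.846% lower of all genes. Of 27 expansin and XTH genes 13 were higher over 4 arrays and 11 without WT replicate 1. A moderate or large difference was found for 2 of them, both higher. Among 22 TBL genes the medians were -0.135 and -0.091, and TBL36 was the 1 gene with such a difference.

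The 6 genes grouped under chromatin and division were higher by smaller amounts. The histone H2B genes HTB1 and HTB11 read 4.77 and 4.69, and 5.35 and 5.28, in TaVAPOE, against 3.47 and 3.54, and 3.14 and 3.92, in WT. All 4 measured H2B genes were higher, by a median of 1.36 over 4 arrays and 0.94 without WT replicate 1. Over all genes the medians were -0.036 and -0.030. In the level classes from 3 upwards, where the H2B genes lie, they were 0.38 to 1.12 and 0.077 to 0.169. HTB4, the brightest H2B gene, differed by 1.19 over 4 arrays and 0.19 without WT replicate 1. TOPII, for topoisomerase II, which untangles DNA before division, read 4.25 and 3.72 in TaVAPOE, against 1.42 and 2.39 in WT. UBC20, a ubiquitin-conjugating enzyme, read 5.04 on both TaVAPOE arrays, a difference of 1.915 over 4 arrays and 1.035 without WT replicate 1. FU, the plant homologue of the FUSED kinase, differed by 1.16 over 4 arrays and 1.49 without WT replicate 1. A second FU probe set read 1.35 and 0.96 in TaVAPOE, against 3.32 and 1.27 in WT, and WT replicate 2 lay between the TaVAPOE arrays, so it gave no direction. The family of chromatin remodelling CHR genes did not share the direction of the 6: 1 of 8 was higher over 4 arrays and 3 without WT replicate 1, with medians of -0.224 and -0.073. CHR40 read 0.91 and 0.41 in TaVAPOE, against 2.90 and 2.52 in WT, and its WT mean was too dim for either class.

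Of all genes, the higher classes held 76 of 2955 at a level of 3 to 4 and 60 of 816 at 4 to 5. At a level of 5 to 6 they held 17 of 659. The higher classes held 5 of 69 plastid-encoded genes (7.25%), beside 1.52% of all genes at any level. Besides ndhA these were ndhK of the same complex, psbC of the photosystem II core, ycf3 for photosystem I assembly, and the ribosomal protein gene rpl16. They differed by 1.03 to 1.65 without WT replicate 1. In contrast psbA, also of the photosystem II core, read 5.51 and 5.14 in TaVAPOE, against 4.95 and 7.47 in WT, a difference of -0.89 over 4 arrays and -2.15 without WT replicate 1, the family's lowest in that setting. As a family, 69 plastid-encoded genes had a median of 0.84 over 4 arrays and 0.096 without WT replicate 1, and 53 and 42 of them were higher in these settings. Without WT replicate 1, 5 were at least 1 unit higher and 3 at least 1 unit lower. Of all genes 2.82% and 4.16% were. The plastid RNA polymerase gene rpoB was lower, at 1.29 and 2.26 in TaVAPOE, against 3.85 and 2.94 in WT. In the nucleus, LHCB4.2, a minor antenna gene, read 7.49 and 7.61 in TaVAPOE, against 3.94 and 6.37 in WT, while its relative LHCB4.1 read 9.29 and 9.11, against 9.09 and 9.22. PORB, which makes chlorophyllide in the light, read 7.66 and 7.47, against 4.27 and 6.50. Cpn60beta2, a plastid chaperonin, differed by 1.76 over 4 arrays and 1.20 without WT replicate 1.

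Genes of specialised metabolism stood on both sides. UGT78D1, which adds rhamnose to flavonols, read 4.38 and 5.09 in TaVAPOE, against 3.29 and 3.19 in WT. DFR, the step from flavonoids towards anthocyanins, read 3.81 and 3.50, against 1.99 and 2.43. BCAT4, an early enzyme of methionine-derived glucosinolates, read 5.69 and 5.64 in TaVAPOE and 2.76 and 4.39 in WT, with 5.32 on mutant replicate 2. The beta-glucosidase PYK10, the main protein of ER bodies, read 3.73 and 3.99, against 1.95 and 2.77, and BGLU25 read 3.68 and 3.85, against 2.61 on both WT arrays. Lower were SHT, which couples spermidine to hydroxycinnamic acids, the lignin-type methyltransferase gene CCOAMT, the cytochrome P450 CYP71B23, and UGT87A2, a glycosyltransferase known for its part in flowering time. UGT87A2 read 2.98 and 2.85 in TaVAPOE, against 3.70 and 4.63 in WT and 4.59 on mutant replicate 2. Of 50 UDP-glycosyltransferases, these made 1 higher and 1 lower gene with a moderate or large difference, and of 24 cytochrome P450 genes CYP71B23 was the 1 with such a difference.

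The 6 genes grouped under abiotic stress and copper, a group made after their values were seen, were all among the moderately higher. DI21, named for induction by drought, read 5.42 and 5.60 in TaVAPOE, against 3.86 and 3.58 in WT. HVA22C, a relative of an abscisic acid-induced barley gene, read 4.99 and 4.56, against 3.29 and 2.95. XERICO, a RING protein that raises abscisic acid, differed by 1.58 over 4 arrays and 1.04 without WT replicate 1, and PUB19, a U-box ubiquitin ligase of the drought response, by 1.20 and 1.01. ORA47, an ERF-type factor of jasmonate synthesis, read 6.92 and 7.01, against 3.38 and 5.70. CCS, the copper chaperone of superoxide dismutase, differed by 1.95 and 2.44. No gene of the fixed list of 12 abscisic acid and drought genes was measured, and CCS was the 1 gene measured of the copper and superoxide list. Of other stress lists, 0 of 5 cold-response and 0 of 6 heat-shock genes measured had a moderate or large difference. Over all genes 1.52% were in the higher and 0.846% in the lower classes.

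The 2 defensins stood on opposite sides. LCR69, also called PDF2.2, read 8.50 and 8.69 in TaVAPOE, against 6.11 and 7.37 in WT. PDF1.2, the jasmonate-responsive defensin, read 1.70 and 1.99 in TaVAPOE, against 3.07 and 3.40 in WT, with 1.85 on mutant replicate 2. Of 15 defensin-like and thionin genes recognised by symbol, these were the 2 with a moderate or large difference.

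Membrane traffic and transport genes were mixed as well. CEF, a SEC24-type coat protein of vesicles leaving the ER, read 3.70 and 3.59 in TaVAPOE, against 1.26 and 2.55 in WT. AT5G46630, listed as the AP-2 mu-adaptin of endocytosis, read 4.59 and 5.28, against 2.06 and 3.73. The vacuolar fructose transporter SWEET17 read 4.03 and 3.51, against 2.56 and 2.72, while SWEET2 read 1.75 and 1.80, against 3.65 and 2.83. NET2C, a NETWORKED protein related to the VAP27 partner NET3C, read 1.66 and 1.27 in TaVAPOE, against 3.69 and 2.49 in WT. Its difference was -1.62 over 4 arrays and -1.02 without WT replicate 1. With values raised to the 20th percentile these were -1.46 and -0.86, the second below the size of the moderate class. NET3C itself read 1.44 and 1.19 in TaVAPOE, against 1.20 and 1.45 in WT, below the 20th percentile on all 4 arrays. XIC, a class XI myosin, read 1.69 and 1.54, against 3.25 and 3.21. Among 37 PRA1, VPS, SEC and NET genes NET2C was the 1 with such a difference.

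The lower group of receptors and calcium binders lay well above the dim end in WT. GLR2.7 and GLR2.8, neighbouring genes for glutamate receptor-like channels, read 1.67 and 2.63, and 2.17 and 2.40, in TaVAPOE, against 3.38 and 3.78, and 2.81 and 3.96, in WT. Mutant replicate 2 read 3.31 for GLR2.7, below both WT arrays and above both TaVAPOE arrays, and 3.56 for GLR2.8, between the WT arrays. CML41, a calmodulin-like protein, read 2.77 and 2.16 in TaVAPOE, against 4.55 and 3.79 in WT. The GLR family of 8 had medians of -0.091 (0.10 after quantile normalization) and -0.449, and these 2 members were the ones with a moderate difference.

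For transcription, LBD29, which acts in the start of lateral roots, read 1.11 and 1.07 in TaVAPOE, against 3.13 and 2.82 in WT. Mutant replicate 2 read LBD29 at 1.07. The MADS-box gene AGL94 and the coactivator KIWI had differences of -1.60 and -1.27 over 4 arrays and of -1.68 and -1.90 without WT replicate 1, while bHLH104, a factor of the iron response, was higher by 2.20 and, without WT replicate 1, by 1.36. The WRKY family had 0 of 7 genes with a moderate or large difference and bZIP factors 0 of 20, which families of this size cannot set apart from the 1.52% and 0.846% of all genes.

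The lower genes differed from the higher ones in where they lay on the scale, and the calling rule partly sets this. Both WT arrays had to lie beyond TaVAPOE. WT replicate 1 read below WT replicate 2 for 99.3% of genes at a level of 6 or more. Under a level of 2 it did so for 23.4%. Bright genes could therefore seldom be called lower, nor dim ones higher. For a lower gene the WT mean also had to lie above the median of all values, and that mean included WT replicate 1. A dim gene could thus be called lower through its reading on that array. AT2G15190, moderately lower, read 3.64 on WT replicate 1 and 1.94 on WT replicate 2, the second below that median. How many lower genes met the condition only in this way was not counted. Under a level of 2, 0 genes were in the higher classes and 44 in the lower. At a level of 6 or more these counts were 7 and 0. Of the 109 genes moderately lower, 43 read below the 20th percentile on both TaVAPOE arrays, and 2 averaged above 5 in WT. Their median level was 1.62 in TaVAPOE, against 3.45 on WT replicate 1 and 2.82 on WT replicate 2, with 2.01 on mutant replicate 2. Mutant replicate 2 was nearer to TaVAPOE than to WT replicate 2 for 65 of the 109, and for 75 of the 182 moderately higher genes. The large class differed: mutant replicate 2 lay nearer to WT replicate 2 for 20 of the 21 higher genes, ndhA being the exception, and for all 4 lower ones. These counts set the mean of 2 TaVAPOE arrays against 1 WT array, on genes chosen for their distance from that array. The like share over all genes is not given, so the counts only describe. Isolated signals at the dim end were also counted. On the TaVAPOE pair and mutant replicate 2, 3872 probe sets lay below the 20th percentile. Of these, 17 read above the median of all values on WT replicate 2. The like count for mutant replicate 2 was 1 of 3203. For the TaVAPOE arrays the counts were 0 of 3160 and 3 of 3191, but each had its own replicate among the low arrays. A signal of that genotype could thus not count, while a wild-type signal could on WT replicate 2. The part of either WT array in the dim lower genes was not tested.

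**Figure D4:**
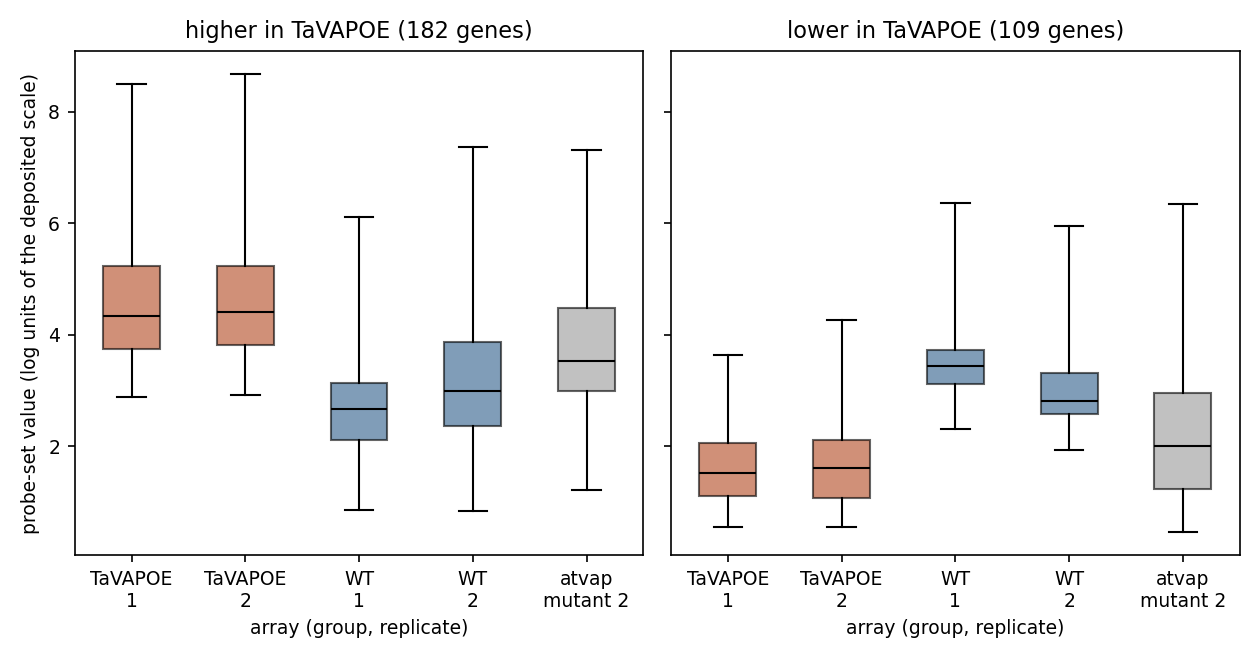
Probe-set values (log units) of the 182 moderately higher and 109 moderately lower genes on each TaVAPOE and WT array and on atvap mutant replicate 2. Boxes span the quartiles with the median, and whiskers reach the lowest and highest gene. Mutant replicate 2 lies between the groups on the left (median 3.53) and nearer to TaVAPOE on the right (median 2.01).

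Some differences of 1 unit or more against WT replicate 2 had no counterpart on WT replicate 1. AT4G24780 read 5.20 and 5.17 in TaVAPOE, against 5.34 on WT replicate 1 and 3.15 on WT replicate 2. AT3G44400 read 3.14 and 2.83 in TaVAPOE, against 3.02 and 0.98 in WT. PDF1.2b, whose probe set may also detect related defensins, read 2.63 and 2.49 in TaVAPOE, against 2.15 and 4.90. For these the WT arrays lie on either side of the TaVAPOE pair or level with it, and the comparison gives no direction with both. Cold-response genes showed this as a list: all 5 measured were higher over 4 arrays and all 5 lower without WT replicate 1, with medians of 0.40 and -0.67 (-0.49 after quantile normalization of the 4 arrays). The dehydrin COR47 read 6.88 and 6.96 in TaVAPOE, between 5.82 and 7.61 in WT. Aldehyde dehydrogenases did likewise, with 8 of 8 higher over 4 arrays (median 1.21) and 3 of 8 without WT replicate 1 (median -0.088).

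The ER stress, VAP27, heat-shock and clock lists each had 0 genes with a moderate or large difference. Lists of this size cannot set that apart from the 1.52% higher and 0.846% lower of all genes. All 7 measured ER stress genes were higher in both settings, by a median of 1.26 over 4 arrays and 0.33 without WT replicate 1. Over all genes in the level classes from 3 upwards the medians were 0.38 to 1.12 and 0.077 to 0.169. BZIP60, a transcription factor of the unfolded protein response, read 6.96 and 6.69 in TaVAPOE, against 3.89 and 5.98 in WT. The VAP27 and contact-site list had 8 of 15 genes measured, with medians of -0.107 and -0.011 and 0 moderate or large differences. Without WT replicate 1, 2 of the 8 were at least 1 unit lower and 0 higher, beside 4.16% and 2.82% of all genes. The gene AT1G51270, among these 2, read 2.50 and 2.56 in TaVAPOE, against 2.56 and 3.69 in WT. Of 6 heat-shock genes, 3 were higher in each setting and 0 had such a difference, and 0 of 2 circadian clock genes did.

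**Figure D5:**
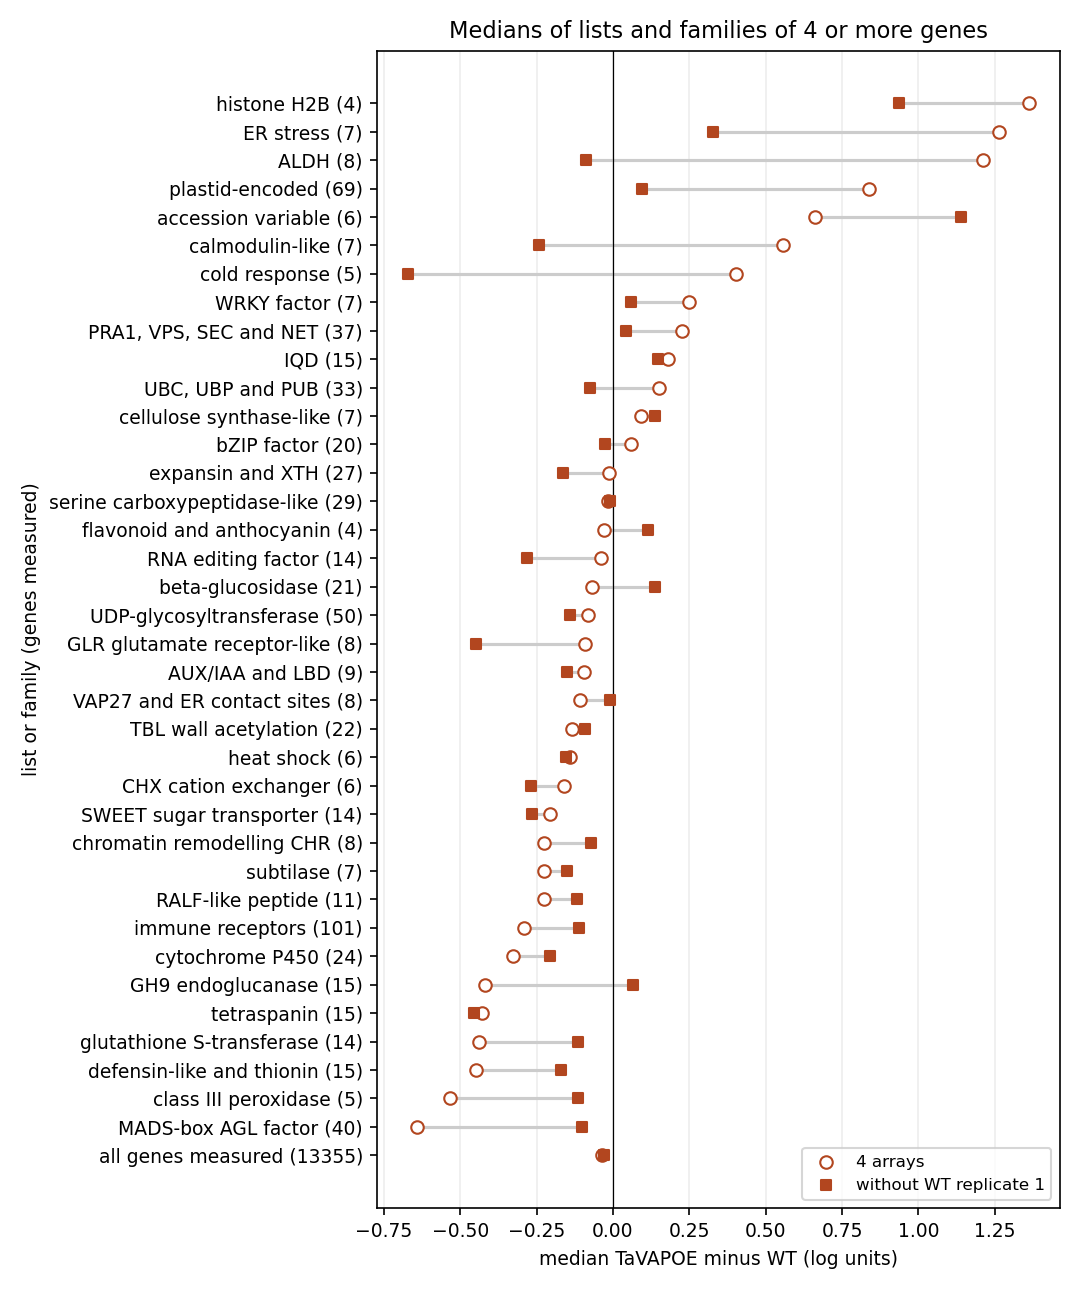
Median TaVAPOE minus WT difference (log units) of lists and families with 4 or more genes measured, over 4 arrays (open circles) and without WT replicate 1 (filled squares), with all 13355 genes at the bottom. Histone H2B, ER stress and the accession-variable list keep positive medians in both settings, while aldehyde dehydrogenases and cold-response genes have medians of opposite sign.

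An accession background would show as differences at loci that natural accessions carry in different forms, so loci known for this were listed, with earlier results of these data known. Of 49 such loci 6 were measured, and 2 had a large difference, ECS1 and AT3G44630, both higher in TaVAPOE (1.52% of all genes were in the higher classes). AT3G44400 was 2.01 higher without WT replicate 1. The other 3 were close between groups: AOP3, which sets glucosinolate side chains, read 2.53 and 2.28 in TaVAPOE, against 1.86 and 2.50 in WT, AT4G19500 read 3.03 and 3.37, against 2.79 and 2.93, and AT4G19510 read 2.25 and 2.71, against 2.23 and 2.22.

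Loci of immune receptor type, a class whose members vary in sequence and presence between accessions, were listed after the values were seen. Their class rests on general knowledge of the loci and not on the annotation used here. Of 161 loci 101 were measured, with 5 higher and 2 lower in the large or moderate class, beside 1.52% and 0.846% of all genes. The higher ones were AT1G66090, AT3G44630, AT1G57630, AT4G19520 and AT5G45510, and the lower ones AT1G57650 and AT1G17600. AT1G57630 read 4.21 and 3.77 in TaVAPOE, against 2.21 and 1.76 in WT, and AT4G19520 read 3.49 and 3.69, against 2.04 and 1.72. AT1G17600 read 1.29 and 1.24 in TaVAPOE, against 3.94 and 2.70 in WT. The list as a whole had medians of -0.29 over 4 arrays and -0.112 without WT replicate 1, and 34 of 101 genes were higher over 4 arrays and 40 without WT replicate 1.

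Some of the genes with a large or moderate difference lay side by side. Within 5 annotated genes of each other there were 14 pairs that were both higher, 2 pairs both lower and 9 pairs of opposite direction. Of the 14 higher pairs, 5 came from 1 cluster of 4 genes. Over all measured genes there were 25096 pairs within that distance, and whether side-by-side genes were more frequent than elsewhere was not tested. On chromosome 5, AT5G45480, AT5G45500, AT5G45510 and MOB1-like, a gene of cell proliferation, stood higher by 1.50, 1.95, 1.51 and 2.40 over 4 arrays, and by 1.53, 2.86, 1.27 and 1.29 without WT replicate 1. On chromosome 1, AT1G66090 and AT1G66100 were both largely higher. Opposite neighbours included the pair with the largest contrast, AT3G48640 (lower) beside AT3G48650 (higher), and the receptor loci AT1G57630 (higher) and AT1G57650 (lower), 2 steps apart. The shares of genes in the higher classes were alike over the nuclear chromosomes, between 1.29% and 1.70%, and those in the lower classes between 0.671% and 0.968%.

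The loci that could reflect an accession background, by the lists above and by their place, are ECS1, AT3G44630, the other receptor loci named above, and the neighbours AT3G48640 and AT3G48650. For AT3G48640, ECS1 and AT3G44630, mutant replicate 2 read 8.53, 2.77 and 0.93, on the side of WT replicate 2. A probe set measures hybridization, so less transcript and a sequence that matches the probes less well cannot be told apart on these arrays. Whether the TaVAPOE and WT seeds came from the same accession stock is not given in the sources used here, and its part in these differences was not tested.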

How the data were processed

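Whole 5-day-old seedlings were profiled on Affymetrix arrays with biotin-labelled RNA, per the labels' protocols. The authors deposited 1 score per probe set and array, per the file headers of the value table, with no log base, summarisation or normalization stated. The submitters' processing notes name only Agilent Feature Extraction, which is not an Affymetrix tool. The scores were used as deposited. Of 22810 probe sets, 64 control sets were left out and 22746 tested. The platform annotation gave 1 gene to 13513, several to 503 and none to 8730, and 13436 of those with 1 gene matched the RefSeq table of TAIR10.1. Each gene was read through the probe set with the highest mean over the 4 arrays, which gave 13355 genes, 11820 of them named by locus only.

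Limma 3.58.1 (R 4.3.3) was fitted to the 2 TaVAPOE and 2 WT arrays, with a mean per group, empirical Bayes moderation and Benjamini-Hochberg adjustment at 0.05 over all probe sets. Errors after ± are its moderated standard errors. The same fit without WT replicate 1 stands beside the differences it bears on. The number of arrays, 2 per group, limits the precision. The labels do not say whether the replicate numbers pair the arrays. The correlation of their deviations from the group means was 0.014, which cannot settle this because WT replicate 1 was discordant. No block was used in the main fit.

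The comparison, the 26 gene lists (475 loci, 154 measured; 7 lists had no measured member) and the 31 families found by symbol were chosen with earlier results of these data known, and the immune receptor list and the 9 functional groups after the values were seen. Lists and families are described by counts and medians, with no test. Named genes are, per direction, up to 15 with a large difference, 12 with a moderate difference and the smallest p, and up to 4 of each family with either; up to 4 of each list or family by smallest p; all measured accession-variable loci; large or moderate genes within 5 annotated genes of another of the same direction; and the 6 per direction with the largest difference where WT replicate 1 went with TaVAPOE. Other genes in the text were chosen after their values were seen. The levels of the count of isolated signals at the dim end were also set after the values were seen.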

Additional observations from a re-analysis of the deposited data

How the results depend on the processing

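The alternatives were a filter on dim probe sets, quantile normalization, median centring, a replicate block, all 6 arrays in 1 fit, an intensity trend with robust moderation, values raised to the 20th percentile, removal of probe sets that can match several transcripts, and leaving out each of the 4 arrays. Passing probe sets numbered 0 in the main fit and 1 with the replicate block (AT2G25510, adjusted p = 0.0492), and 0 to 13163 with 1 array left out, the last without WT replicate 2 and 9 without WT replicate 1. The replicate block altered no other call. Probe sets at least 1 log unit apart (491, 276 higher and 215 lower) numbered 284 (254 higher and 30 lower) with dim probe sets left out, 348 (273 and 75) with raised values, 329 (167 and 162) after quantile normalization, and 747 to 10294 (374 to 5734 higher and 373 to 4560 lower) with 1 array left out, WT replicate 2 giving the most. Genes with a large or moderate difference (203 higher and 113 lower) numbered 125 and 124 after quantile normalization, 196 and 47 with dim probe sets left out, and 209 to 2868 higher and 135 to 2549 lower with 1 array left out; without WT replicate 1 there were 310 and 240. Of 40 lists and families with 3 or more genes, 15 had a positive median, 29 with dim probe sets left out, 23 after quantile normalization, and 13 to 24 with 1 array left out. Of the 230 named genes, 140 were higher over 4 arrays. The 25 genes with a large difference kept their direction under the 12 alternatives, 1 of them being left out of some by the filters. Of 96 genes named in the text, 11 took the other sign in some setting. Quantile normalization gave -0.82 for COR47, 0.26 for NET3C, -0.18 for AT4G24780 and -0.087 for LHCB4.1, and centring gave 0.022 for NET3C. With 1 array left out the ranges were -0.69 to 1.11 for COR47, -0.13 to 0.12 for NET3C, -0.15 to 2.04 for AT4G24780, -0.041 to 0.13 for LHCB4.1, -1.07 to 0.30 for EXPA7, -2.34 to 0.42 for PDF1.2b, -0.039 to 2.01 for AT3G44400, -0.093 to 0.55 for AOP3, -1.37 to 0.23 for SPCH, -2.15 to 0.37 for psbA and -0.27 to 0.29 for AT5G07230. The causes were not tested. The median standard error of a difference was 0.493 log units over 4 arrays, which limits what 2 arrays a group can resolve.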
